A study of Mus musculus with 12 samples.

Results

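Cells that carried both Kit and the K5-Venus reporter (Kit+ K5+, double positive) were compared with cells that carried neither (Kit- K5-, double negative). All were E-cadherin+ cells of the submandibular salivary gland, sorted by flow cytometry from mouse embryos of day 15. The comparison used 6 of 12 libraries, chosen by the titles in the labels: 3 of Kit+ K5+ cells and 3 of Kit- K5- cells. The other 6 libraries, 3 of Kit+ K5- and 3 of Kit- K5+ cells, entered the same fit and gave 2 single steps from Kit- K5- cells, Kit alone and K5 alone. All 4 populations came from the strain Tg(KRT5-Venus)1Sgkd, in which the keratin 5 promoter drives the fluorescent protein Venus, so K5+ and K5- describe reporter fluorescence and not the keratin 5 transcript. The labels name no treatment other than the sort. The sources used here do not give the number of embryos or litters per library, so p-values measure the spread between libraries, which may be technical.

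The submandibular gland grows by branching: distal end buds of proliferating progenitor cells extend and cleave, while ducts form behind them. Kit is a receptor tyrosine kinase of end bud progenitors, its ligand is stem cell factor, and FGF signals from the mesenchyme sustain these cells. Keratin 5 marks basal cells and duct progenitors. E-cadherin, encoded by Cdh1, holds epithelial cells together, and its loss together with factors of the SNAI and ZEB families is the textbook sign of a mesenchymal state.

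The gate genes were checked first. Kit (chromosome 5, 75574916 to 75656722, GRCm38) stood at 335, 303 and 319 CPM in double positive and 10.03, 20.4 and 13.7 CPM in double negative cells (CPM are edgeR's counts relative to TMM-scaled library size, in order of replicate). The difference was 4.44 ± 0.32 (SE) on the log2 scale, 21.7-fold, with adjusted p = 2.14e-06 by edgeR's quasi-likelihood test, the source of every adjusted p below. The endogenous keratin 5 gene Krt5 stood at 1.57, 9.93 and 4.26 CPM in double positive and 0.853, 4.597 and 7.15 CPM in double negative cells, the groups overlapped, and the difference of 0.34 ± 0.83 did not pass 0.05 (adjusted p = 0.802). In Kit- K5+ cells it stood at 22.9, 13.5 and 20.3 CPM, above every library of both groups. Cdh1, the gene of the protein used to sort all 4 populations, stood at 1111, 758 and 530.2 CPM in double positive and 172, 149.5 and 198 CPM in double negative cells, and rose by 2.21 ± 0.28 (adjusted p = 0.000108). The fibroblast receptor Pdgfra stood at 7.38, 19.6 and 8.398 CPM in double positive and 707, 637 and 434 CPM in double negative cells, 50.1-fold lower in Kit+ K5+ cells (log2 -5.65, adjusted p = 5.42e-06). All of the Kit- K5- libraries thus held Cdh1, but below every Kit+ K5+ library, and held Pdgfra far above every one. In bulk RNA, fewer cells of a type and less RNA per cell cannot be told apart.

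Double positive libraries held 9395291 to 11391186 counts and double negative ones 9052795 to 13724364. The mitochondrial share of counts was 23.8% ± 6.61 in the double positive against 9.07% ± 3.33 in the double negative libraries (SD, n = 3). Libraries of a group correlated at 0.927 to 0.946 and 0.942 to 0.956 (log2 CPM across genes, which are not replicates). A pair of libraries stood apart. Kit- K5- replicate 1 had summed leukocyte markers of 1390 CPM against 396 and 231 CPM in its group and erythroid markers of 785 against 138 and 137 CPM. Kit+ K5- replicate 1, which enters the Kit step, the interaction and the shared estimate of spread, had mast cell markers of 5137 CPM against 219 and 119.6 CPM and leukocyte markers of 582 CPM against 105 and 98.0 CPM. Summed salivary secretory genes did not single these libraries out, as replicate 1 was highest in all 4 populations. They stood at 2075 CPM against 259.7 and 139 CPM in Kit- K5- cells, and 6720 CPM against 1144 and 527 CPM in Kit+ K5- cells. In Kit+ K5+ cells they stood at 1753 CPM against 793 and 571 CPM, and in Kit- K5+ cells at 1106 CPM against 534 and 274 CPM. Mast cell markers of Kit+ K5+ replicate 1 were at 47.8 CPM against 5.11 and 3.75 CPM in its group.

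Between Kit+ K5+ and Kit- K5- cells, 4540 of 17030 genes tested (26.7%) passed an adjusted p of 0.05: 2073 were higher (12.2%) and 2467 lower (14.5%). The lower side moved further. The median log2 difference was 1.23 among higher and -2.69 among lower genes, against -0.04 over all genes tested. At 8-fold or more, 97 genes were higher and 1106 lower, 1103 with genes at 0 counts set to their bound. Of the lower genes, 71 were at 0 counts in all Kit+ K5+ libraries, and 7 of the higher genes were at 0 in all Kit- K5- libraries. Single libraries of both groups did not overlap for 4471 of the 4540 genes, and for 7835 of all genes tested (46%). Without Kit- K5- replicate 1, 1182 genes were higher and 1575 lower. Without Kit+ K5- replicate 1, these were 2149 and 2604.

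The sign of small differences depended on the scaling. TMM scaling sets the bulk of genes equal between groups. Scaling instead to 23 genes of epithelial cells in general moved the median of all genes from -0.04 to -2.05, and then 44 genes were higher (0.258%) and 13204 lower (77.5%). The directions below are relative to the TMM median unless the epithelial scaling is named, and where that scaling turns a gene group the sentence says so. Every list count below is to be read against the share over all genes tested. Under TMM these shares were 12.2% higher and 14.5% lower, and with the epithelial scaling 0.258% and 77.5%.

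**Figure D1:**
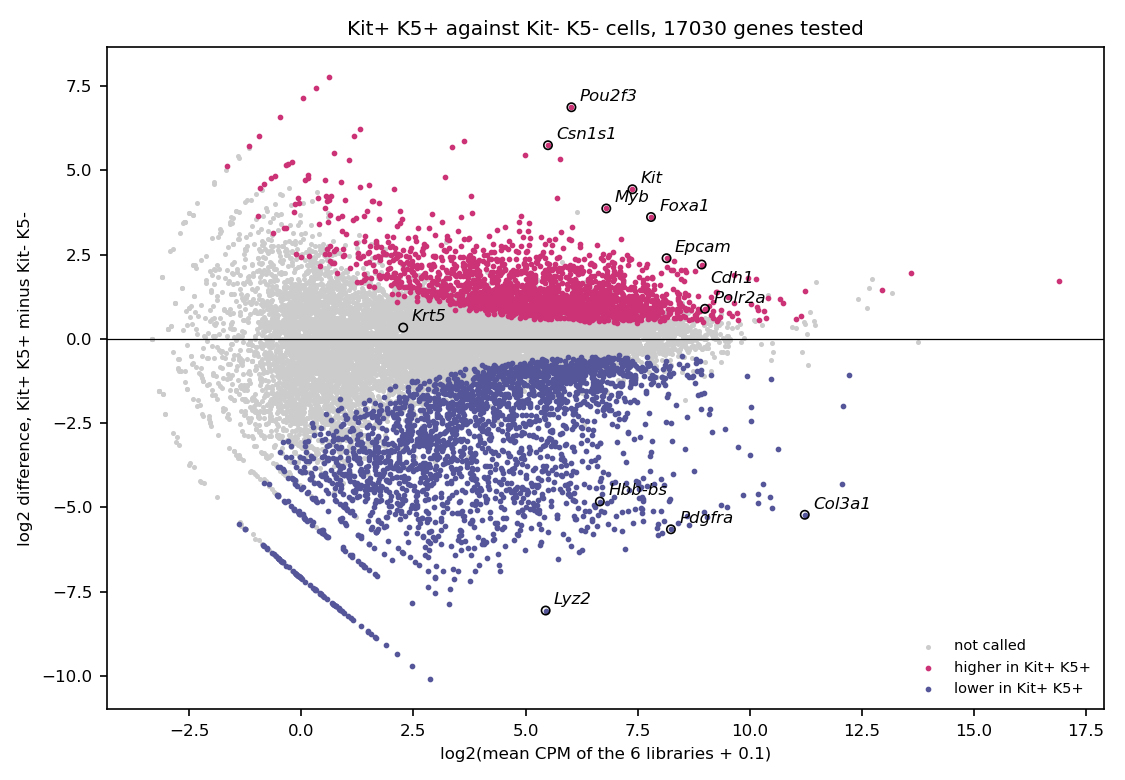
Each point is a gene, with log2(mean CPM of the 6 libraries + 0.1) on the horizontal axis and the log2 difference, Kit+ K5+ minus Kit- K5-, on the vertical axis; colours mark genes past an adjusted p of 0.05, and the diagonal lines of points at low levels are genes at 0 or few counts in a group. The 2467 lower genes reach further from 0 than the 2073 higher genes, Pdgfra stands at -5.65 and Kit at 4.44; scaled to epithelial genes, Polr2a falls below 0 at -1.12, Kit at 2.42 and Pou2f3 at 4.76 stay above it, and Epcam at 0.40 and Cdh1 at 0.16 no longer pass (adjusted p = 0.106 and 0.602).

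Upstream sequence is given for 3 genes from both sides of the comparison, to show stretches with and without an E-box: Epcam, an epithelial adhesion gene, and Tmem30b, a flippase subunit, were higher in Kit+ K5+ cells, and Pdgfra was lower. CAGGTG is the E-box bound by repressors of the ZEB and SNAI families. The transcript of Zeb2 is described further on, and its binding to these stretches was not tested. The 250 bases before the start site are given 5′ to 3′ on the gene's strand, from RefSeq (GRCm38.p6), with CAGGTG or its reverse complement in capitals. They were picked after the matches were seen. Epcam is read from chr17:87635729-87635978 on the plus strand, Tmem30b from chr12:73546396-73546645 on the minus strand and Pdgfra from chr5:75152001-75152250 on the plus strand.
Epcam: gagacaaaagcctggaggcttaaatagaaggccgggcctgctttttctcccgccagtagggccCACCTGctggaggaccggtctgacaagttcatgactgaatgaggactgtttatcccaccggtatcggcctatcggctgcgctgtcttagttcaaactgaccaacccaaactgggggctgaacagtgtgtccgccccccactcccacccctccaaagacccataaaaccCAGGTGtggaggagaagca
Tmem30b: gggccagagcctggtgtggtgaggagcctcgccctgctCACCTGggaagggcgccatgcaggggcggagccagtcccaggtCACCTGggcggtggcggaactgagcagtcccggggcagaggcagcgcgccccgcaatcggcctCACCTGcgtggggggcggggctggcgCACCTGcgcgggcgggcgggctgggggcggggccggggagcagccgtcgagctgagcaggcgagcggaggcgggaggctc
Pdgfra: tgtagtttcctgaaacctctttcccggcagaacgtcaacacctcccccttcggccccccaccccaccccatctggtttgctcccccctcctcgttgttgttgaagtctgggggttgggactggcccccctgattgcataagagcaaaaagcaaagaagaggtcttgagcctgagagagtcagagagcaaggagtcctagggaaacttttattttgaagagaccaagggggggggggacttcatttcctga
The Epcam stretch holds 2 matches and the Tmem30b stretch 4, and none of 6 motifs searched matched in the Pdgfra stretch. The 6 motifs, read on both strands and none containing another, were CAGGTG, AACCGGTT (GRHL), TGTTTAC (FOX), CCGGAAGT (ETS), TGANTCA (AP-1) and ATGCAAAT (POU octamer). In windows from 250 bases before to 50 after the start, CAGGTG was in 20.2% of all 32851 promoters of the table, 18.7% of those of genes tested, 21.6% of those of higher and 16% of those of lower genes. In the same order, AACCGGTT was in 0.146, 0.225, 0.257 and 0.214% of promoters, TGTTTAC in 3.65, 2.5, 2.16 and 2.36%, and CCGGAAGT in 3.89, 6.71, 6.48 and 3.39%. TGANTCA was in 7.81, 5.37, 4.99 and 6.22%, and ATGCAAAT in 1.74, 1.34, 1.96 and 1.16%. Promoters were matched for 1530 of 2073 higher and 1759 of 2467 lower genes. A match is a run of letters, not a bound site.

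The genes that rose furthest included a transcription factor of chemosensory cells, a milk protein, a neural adhesion gene and Kit itself. They are the 12 with the largest log2 difference among genes past 0.05 whose higher group averaged at least 10 CPM and whose groups did not overlap. Pou2f3, the POU factor that specifies tuft and other chemosensory cells, stood at 202, 109 and 75.1 CPM in double positive and 0.787, 1.99 and 0.408 CPM in double negative cells. It was higher by 6.87 ± 0.71 on the log2 scale, 117-fold (adjusted p = 2.00e-05). Kit+ K5- cells held 47.1, 56.1 and 30.4 CPM and Kit- K5+ cells 10, 10.4 and 1.53 CPM, so every Kit+ library lay above every Kit- one, and Kit+ K5+ also passed against Kit- K5+ (adjusted p = 0.0182). Csn1s1, an alpha casein, stood at 123, 84.8 and 58.3 CPM in double positive and 0.853, 3.29 and 0.715 CPM in double negative cells (5.75 ± 0.63, adjusted p = 3.08e-05). Gpr64, an adhesion G protein-coupled receptor, stood at 72.8, 101 and 122 CPM in double positive and 2.43, 7.97 and 5.82 CPM in double negative cells (4.19 ± 0.48, adjusted p = 5.00e-05). Myb, a transcription factor of progenitor cells, stood at 309.7, 163 and 153 CPM in double positive and 13.2, 14.5 and 15.1 CPM in double negative cells (3.87 ± 0.29, adjusted p = 2.14e-06) with the smallest SE of the 12.

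Several others spread widely within the Kit+ K5+ group, with replicate 1 highest. Sez6, known from neurons, stood at 146, 31.6 and 9.69 CPM in double positive and 2.36, 1.23 and 0.51 CPM in double negative cells (5.45 ± 1.20, adjusted p = 0.00485). Fam167a stood at 239, 53.4 and 26.6 CPM in double positive and 3.94, 1.61 and 2.25 CPM in double negative cells (5.34 ± 0.89), and Hepacam2, an adhesion protein, at 39.4, 15.3 and 5.04 CPM in double positive and 0.59, 0.383 and 0.102 CPM in double negative cells (5.68 ± 0.94). Dscaml1, a neural adhesion gene, was higher by 5.88 ± 0.96, and Rassf6 by 4.23 ± 0.87. Cited4, a co-regulator that binds CBP and p300, was higher by 3.72 ± 0.60. Ttc6 (chromosome 12, 57564113 to 57737928) was higher by 3.66 ± 0.44 and lies beside Foxa1 (chromosome 12, 57540628 to 57546916), a pioneer factor of epithelial cells, which stood at 682, 293 and 258 CPM in double positive and 36.1, 24.9 and 39.6 CPM in double negative cells (3.62 ± 0.34, adjusted p = 1.01e-05). At these positions Ttc6 and Foxa1 do not overlap. The strand setting of the counting is not given, so reads of genes that do overlap cannot be told apart.

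**Figure D2:**
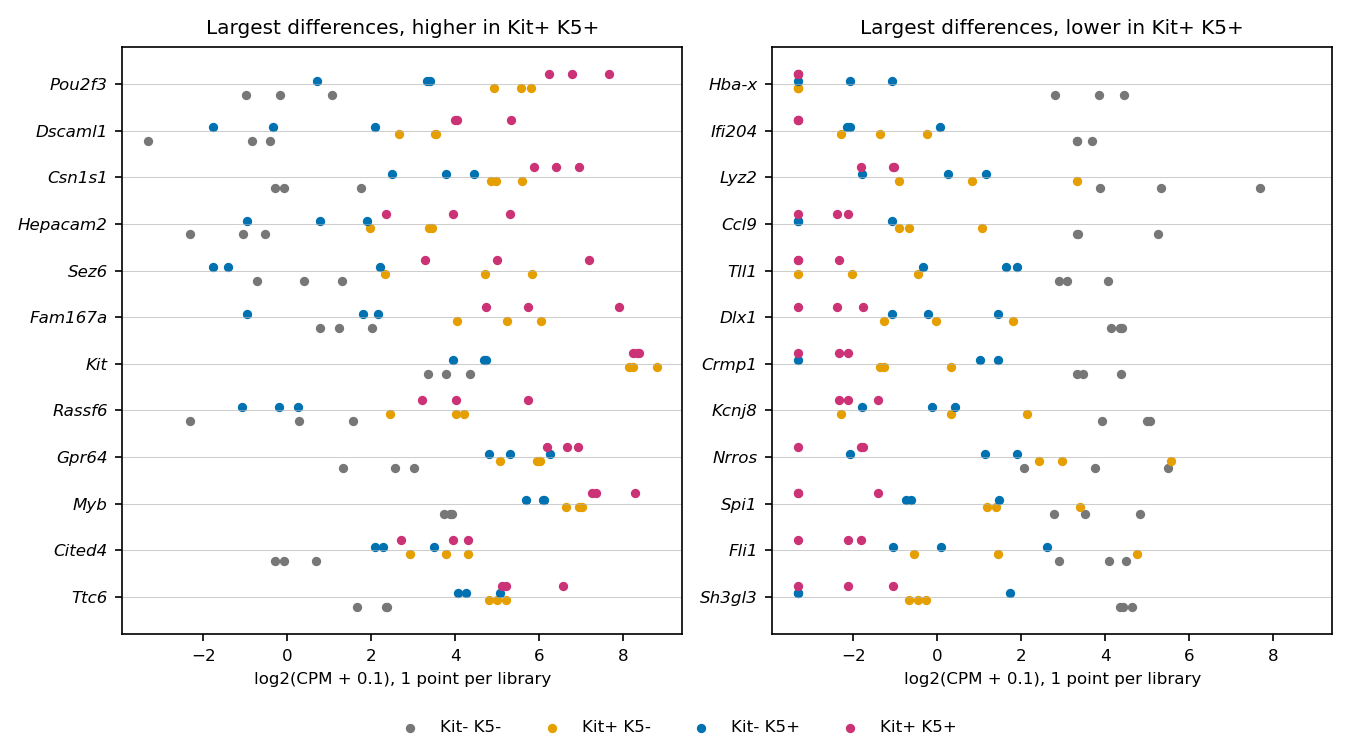
Points are single libraries on a log2(CPM + 0.1) axis for the 12 genes with the largest difference in each direction, with the 4 populations in 4 colours. That the Kit+ K5+ and Kit- K5- libraries do not overlap was a condition for choosing the 24 genes. Nrros, Fli1 and Spi1 show 1 Kit+ K5- library far above the rest of its group.

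Genes of epithelial cells in general rose nearly together: 21 of 23 were higher and 0 lower, with a median log2 difference of 2.15 against -0.04 over all genes tested. Without Kit- K5- replicate 1, 18 were higher. Epcam stood at 589.7, 398 and 438 CPM in double positive and 64.8, 87.4 and 119 CPM in double negative cells (2.39 ± 0.24, adjusted p = 1.81e-05). The splicing regulator Esrp1 rose by 2.21 ± 0.22 and Ovol2, a repressor of mesenchymal genes, by 2.91 ± 0.70. Both also passed in each single step. Among the members that did not pass, Cldn6 stood at 0.64. Scaled to these same genes, 0 of 23 passed in either direction, which that scaling fixes, and Grhl2, an epithelial activator that rose by 1.89 ± 0.23 under TMM, stood at -0.08.

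Desmosome and tight junction genes followed, with 15 of 19 tested members higher and 0 lower at a median of 1.69, while 0 were higher and 5 lower with the epithelial scaling. Desmoplakin, encoded by Dsp, stood at 546, 494 and 545 CPM in double positive and 111, 140.1 and 162 CPM in double negative cells (1.94 ± 0.21, adjusted p = 2.68e-05), and -0.05 with the epithelial scaling. Perp, a desmosomal membrane protein, rose by 2.03 ± 0.34 and the desmosomal cadherin Dsg2 by 2.20 ± 0.31. With the epithelial scaling they stood at 0.09 and 0.26 and no longer passed (adjusted p = 0.827 and 0.397). Hemidesmosome and basement membrane genes divided: 8 of 24 were higher and 6 lower (median 0.54), against 5 and 5 without Kit- K5- replicate 1 and 0 and 14 with the epithelial scaling. The epithelial integrin Itga6 rose by 2.03 ± 0.32, and the laminin Lama5 by 2.18 ± 0.49, while the laminin Lama2 fell by 5.71 and the nidogens Nid1 by 4.92 and Nid2 by 4.76, all on the log2 scale.

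End bud genes rose: 15 of 20 were higher and 0 lower (median 1.84), 12 without Kit- K5- replicate 1, against 2 higher and 1 lower with the epithelial scaling. Kit and Myb lead the list and are the 2 members higher with that scaling. The cells were sorted on Kit, so its rise is not a separate result. The ErbB receptor Erbb3 stood at 269, 170.5 and 180.2 CPM in double positive and 36.4, 37.4 and 55.8 CPM in double negative cells (2.26 ± 0.24, adjusted p = 2.49e-05). Elf5, an ETS factor of secretory epithelium, stood at 61.1, 30.8 and 48.8 CPM in double positive and 1.71, 8.43 and 13.4 CPM in double negative cells (2.60 ± 0.64, adjusted p = 0.00882). Sox9, a progenitor factor of end buds, rose by 1.43 ± 0.27 and Myc by 1.84 ± 0.30 under TMM, but stood at -0.52 and -0.12 with the epithelial scaling. Of the list, Sox2 at 0.80, Fgfr2 at 1.07, Aqp5 at 1.87, Bhlha15 at 0.79 and Dnajb9 at -0.39 did not pass 0.05; with the library runs as a block Fgfr2, Aqp5 and Bhlha15 passed (adjusted p = 0.00668, 0.00917 and 0.0194). Some genes stand in more than 1 list, as Kit, Myc and Erbb3 do, so counts of these lists are not separate.

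Of 19 basal duct genes tested, 6 were higher and 1 lower (median 1.42), 10 and 2 with the library runs as a block, 4 and 0 without Kit- K5- replicate 1, and 0 and 5 with the epithelial scaling. In the K5 step, 13 of 19 were higher. Beside Krt5, the basal keratin Krt14 stood at 13.9, 66.04 and 39.8 CPM in double positive and 4.26, 18.3 and 13.4 CPM in double negative cells (log2 1.74 ± 0.75, adjusted p = 0.105) and the basal factor Trp63 at 75.5, 279.8 and 314 CPM in double positive and 14.03, 89.03 and 99.8 CPM in double negative cells (log2 1.72 ± 0.77, adjusted p = 0.117). Both overlapped between the groups, with replicate 1 lowest in each group. Within each library run both were higher in the double positive library, and with the runs as a block both passed (Krt14 1.71, adjusted p = 0.0455, and Trp63 1.84, adjusted p = 0.0202). Luminal duct genes gave 10 higher and 1 lower of 18 tested (median 1.49), against 1 and 6 with the epithelial scaling. Foxi1, the forkhead factor of ionocytes, stood at 8.67, 5.303 and 1.81 CPM in double positive and 0.328, 0 and 0.306 CPM in double negative cells (4.57 ± 1.00, adjusted p = 0.00464). Cldn10, a claudin of ion-permeable junctions, rose by 2.67 ± 0.52 and the ETS factor Elf3 by 2.36 ± 0.34. Of 19 salivary secretory genes tested, 8 were higher and 1 lower (median 1.54), 12 and 2 with the block, 9 and 0 without Kit- K5- replicate 1 (median 2.55), and 1 and 2 with the epithelial scaling. Their summed level was 571 to 1753 CPM in double positive libraries, below the 2075 CPM of Kit- K5- replicate 1. The muscarinic receptor Chrm3 rose by 2.99 ± 0.59. Dcpp1, of the demilune cell and parotid protein family, rose by 3.33 ± 0.71; its near-identical copies make the split of reads uncertain. Bpifa2, a secreted salivary protein, ranged within each group (370.4, 25.3 and 0.388 CPM in double positive and 28.1, 0.69 and 0 CPM in double negative cells) and did not pass (adjusted p = 0.259), but passed with the block (adjusted p = 0.000306).

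**Figure D3:**
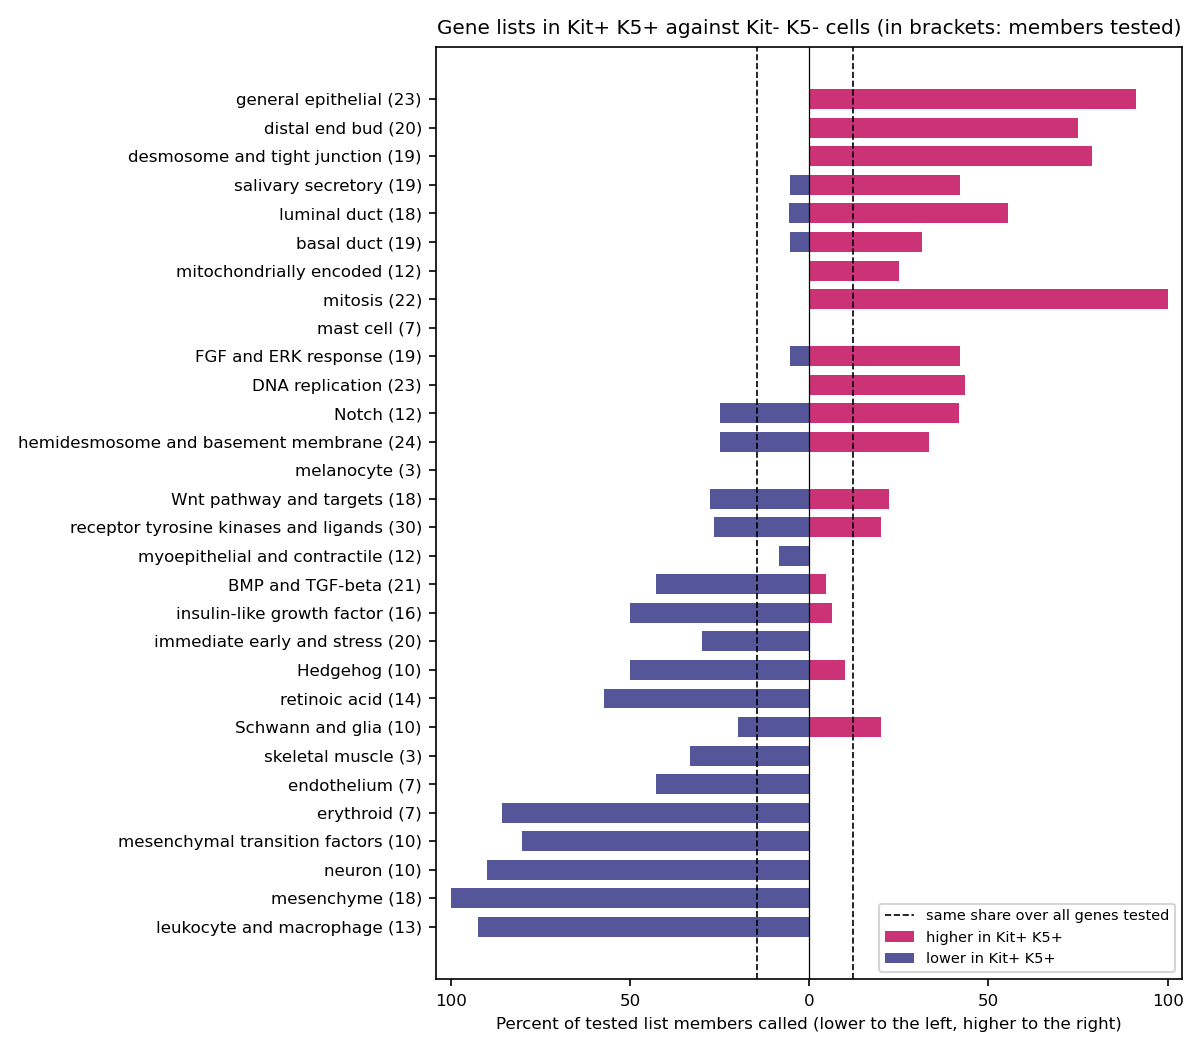
Bars give the percent of tested members of each of 30 gene lists called higher (right) or lower (left) in Kit+ K5+ cells, ordered by median log2 difference, with dashed lines at the shares over all genes tested, 12.2% and 14.5%. Mitosis genes reach 100% higher and mesenchyme genes 100% lower. With scaling to epithelial genes 0 to 2 members of any list were higher. The mitosis genes, 22 higher here, then gave 11 lower, where 77.5% of all genes tested were lower.

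Of 30 receptor tyrosine kinase genes tested, ligands included, 6 were higher and 8 lower (median -0.38), 1 and 18 with the epithelial scaling. The 1 gene still higher was Kit, on which the cells were sorted. Among ligands, Fgf10, which drives branching through Fgfr2, stood at 5.26, 6.56 and 4.005 CPM in double positive and 154, 180.4 and 119.9 CPM in double negative cells (-4.83 ± 0.51, adjusted p = 2.53e-05). Fgf7 stood at 1.199, 0.868 and 2.71 CPM in double positive and 72.3, 60.1 and 48.5 CPM in double negative cells (-5.27 ± 0.54) and hepatocyte growth factor, Hgf, at 0.646, 0.482 and 0.258 CPM in double positive and 41.1, 25.4 and 32.98 CPM in double negative cells (-6.09 ± 0.63). For all 3 ligands every Kit- K5- library lay far above every Kit+ K5+ library. An absence of overlap alone was shared by 4471 of 4540 called genes and 46% of all genes tested. Among receptors, Met, which binds Hgf, stood at 17.1, 33.2 and 48.2 CPM in double positive and 11.1, 10.8 and 14.3 CPM in double negative cells and rose by 1.44 ± 0.35 under TMM (adjusted p = 0.00893) but stood at -0.49 with the epithelial scaling. Ret, the neuronal receptor of the GDNF family, fell by 3.33 ± 0.74, Pdgfrb by 6.24 ± 0.49 and the collagen receptor Ddr2 by 4.73 ± 0.39.

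Genes that answer FGF and ERK signals gave 8 higher and 1 lower of 19 (median 0.76), 3 lower with the block, and 0 and 11 with the epithelial scaling. The ERK phosphatase Dusp6 stood at 143, 181 and 176 CPM in double positive and 64.3, 67.2 and 85.7 CPM in double negative cells and rose by 1.20 ± 0.21, and cyclin D1, Ccnd1, rose by 1.73 ± 0.36; with the epithelial scaling they stood at -0.76 and -0.24. Insulin-like growth factor genes went the other way, with 1 of 16 higher and 8 lower (median -0.85), 0 and 6 without Kit- K5- replicate 1, and 0 and 15 with the epithelial scaling. The growth factor Igf2 stood at 248, 464 and 501 CPM in double positive and 7443, 8608 and 8094 CPM in double negative cells (-4.32 ± 0.56, adjusted p = 0.000121), its imprinted neighbour H19 fell by 3.27 ± 0.28, and Igf1 by 5.15 ± 0.58. BMP and TGF-beta genes gave 1 higher and 9 lower of 21 (median -0.72), 0 and 19 with the epithelial scaling. The receptors Bmpr1b and Tgfbr2 fell by 3.22 ± 0.52 and 2.24 ± 0.45. The member that rose was Id2, an inhibitor of bHLH factors, by 1.27 ± 0.28 under TMM against -0.74 with the epithelial scaling.

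Retinoic acid genes gave 0 higher and 8 lower of 14 (median -1.43), 2 higher with the block, and 0 and 13 with the epithelial scaling. Aldh1a2, the main enzyme of retinoic acid synthesis in embryos, stood at 1.84, 2.99 and 0.388 CPM in double positive and 181, 151 and 97.6 CPM in double negative cells (-6.31 ± 0.76, adjusted p = 6.97e-05), and the binding protein Crabp1 fell by 3.56 ± 0.56. Of 18 Wnt genes tested, 4 were higher and 5 lower (median -0.32), 2 and 2 without Kit- K5- replicate 1, and 0 and 11 with the epithelial scaling. Rnf43, a ligase that removes Wnt receptors and is itself a Wnt target, stood at 47.4, 48.4 and 49.1 CPM in double positive and 7.48, 7.74 and 9.19 CPM in double negative cells (2.57 ± 0.21, adjusted p = 3.53e-06). The secreted inhibitor Sfrp2 fell by 3.51 ± 0.55. Notch genes gave 5 higher and 3 lower of 12 (median 0.58), 2 and 3 without Kit- K5- replicate 1, and 0 and 8 with the epithelial scaling. The target Hey1 rose by 1.97 ± 0.40, whereas Heyl, the relative found in vessel walls, stood at 1.11, 2.41 and 0.129 CPM in double positive and 42.3, 76.7 and 54.6 CPM in double negative cells (-5.51 ± 0.67). Hedgehog genes gave 1 higher and 5 lower of 10 (median -1.17), 0 and 1 without Kit- K5- replicate 1, and 0 and 9 with the epithelial scaling. The co-receptor Gas1 fell by 2.05 ± 0.31 (adjusted p = 0.000421).

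Genes of cell division rose together under TMM: 22 of 22 mitosis genes were higher (median 1.28), 18 without Kit- K5- replicate 1. Over all genes tested, 12.2% were higher. With the epithelial scaling 0 of the 22 were higher and 11 lower, against 0.258% and 77.5% of all genes tested. Mki67, present in cycling cells, stood at 1970.0, 1370.0 and 2378 CPM in double positive and 726, 855 and 869.5 CPM in double negative cells (1.22 ± 0.23, adjusted p = 0.00167), and -0.79 with the epithelial scaling. Cyclin A2, Ccna2, rose by 1.53 ± 0.19 and the ubiquitin-conjugating enzyme Ube2c by 1.81 ± 0.26, against -0.48 and -0.13. The replicates of each group lay close together for Ccna2, at 293, 295 and 289.7 CPM in double positive and 92.4, 112 and 98.4 CPM in double negative cells. DNA replication genes gave 10 higher and 0 lower of 23 (median 0.63), 5 without Kit- K5- replicate 1, and 0 and 20 with the epithelial scaling. Rrm2, which makes deoxynucleotides, rose by 2.02 ± 0.30, and Mcm4, of the replicative helicase, stood at 271, 240.1 and 254 CPM in double positive and 159.9, 175 and 172 CPM in double negative cells.

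Of the 12 genes with the largest difference on the lower side, Hba-x, an embryonic alpha-like globin, had 0 counts in the Kit+ K5+ libraries and 532 in the Kit- K5- libraries, at least 135-fold lower (against 3 counts over the group), and Ifi204, of an interferon-inducible family with near copies, had 0 and 423, at least 107-fold lower. Lyz2, the lysozyme of macrophages, stood at 0.184, 0.386 and 0.388 CPM in double positive and 206, 39.99 and 14.7 CPM in double negative cells (-8.06 ± 1.31, adjusted p = 0.000661); replicate 1 of the Kit- K5- cells was its highest library. Spi1, the myeloid factor PU.1, had 3 counts against 647, a ratio of 164 (95% counting interval 55.8 to 797). The chemokine Ccl9 had 2 against 813, a ratio of 309 (85.3 to 2560), and the ETS factor Fli1 3 against 635, a ratio of 161 (54.8 to 782). These intervals cover counting error only. The tolloid-like protease Tll1 had 1 count against 411 and the homeobox gene Dlx1 3 against 742, ratios of 312 (55.8 to 12400) and 188 (64.1 to 914). Crmp1, a protein of growing axons, had 2 against 498, a ratio of 189 (52.1 to 1570). The channel gene Kcnj8 of vessel-wall cells fell by 7.19 ± 1.05 and Sh3gl3 fell by 6.90 ± 1.28. Nrros, a macrophage protein, stood at 0.184, 0.193 and 0 CPM in double positive and 44.9, 13.4 and 4.08 CPM in double negative cells; it passed with edgeR (adjusted p = 0.00227) but not with limma-voom (adjusted p = 0.0822).

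Marker lists of other cell types show how far the Kit- K5- libraries differ from an epithelial profile. All 18 mesenchyme genes were lower and 0 higher (median -5.10), also without Kit- K5- replicate 1 and with the epithelial scaling. Their summed level was 703 to 987 CPM in double positive and 13830 to 22850 CPM in double negative libraries, and the general epithelial genes summed to 3837 to 5235 and 898 to 1339 CPM. Collagen III, Col3a1, stood at 120.0, 156 and 100.1 CPM in double positive and 5418, 5240.0 and 3338 CPM in double negative cells (-5.22 ± 0.45, adjusted p = 4.93e-06). Col1a1 stood at 106, 89.8 and 33.9 CPM in double positive and 3136, 2182 and 1453 CPM in double negative cells (-4.88 ± 0.61). Vimentin, Vim, which is not confined to mesenchyme, fell less, by 2.21 ± 0.32. Of 10 mesenchymal transition factors tested, 8 were lower and 0 higher (median -4.30). Prrx1 stood at 10.6, 16.7 and 10.2 CPM in double positive and 581, 560.5 and 459 CPM in double negative cells (-5.41 ± 0.46, adjusted p = 4.64e-06). Zeb2, a repressor of the ZEB family, stood at 14.2, 16.6 and 9.69 CPM in double positive and 492, 324 and 321 CPM in double negative cells (-4.81 ± 0.76, adjusted p = 0.000546).

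Leukocyte and macrophage genes gave 12 lower of 13 (median -5.79, and -5.24 with C1qa, at 0 in all Kit+ K5+ libraries, at its bound), 10 without Kit- K5- replicate 1. They summed to 51.2 to 61.7 CPM in double positive and 231 to 1390 CPM in double negative libraries. The macrophage receptor Cx3cr1 stood at 1.01, 0.675 and 0.258 CPM in double positive and 73.7, 28.1 and 11.5 CPM in double negative cells (-5.79 ± 1.10). Erythroid genes gave 6 lower of 7 (median -4.30), but 3 without Kit- K5- replicate 1, and summed to 16.6 to 18.99 against 137 to 785 CPM, with Hba-a2 at 0 in all Kit+ K5+ libraries. Hbb-bs, adult beta globin, stood at 8.67, 8.39 and 3.36 CPM in double positive and 470.5, 63.4 and 50.2 CPM in double negative cells (-4.82 ± 0.85); its copies may share reads. Neuron genes gave 9 lower of 10 (median -4.85), 9 without Kit- K5- replicate 1, and summed to 3.78 to 6.94 against 85.8 to 205 CPM. Tubb3, neuronal tubulin, had 2 counts against 238. Endothelial genes gave 3 lower of 7 (median -2.59) and summed to 8.76 to 22.1 against 53.5 to 68.2 CPM, with Tek, the angiopoietin receptor, lower by 2.61 ± 0.57. Of 7 mast cell genes tested, 0 passed in either direction; Fcer1a, Mcpt4 and Gata1 were at 0 in all Kit+ K5+ libraries, and Cpa3, a mast cell protease, stood at 28.7, 1.74 and 0 CPM in double positive and 6.82, 4.21 and 5.41 CPM in double negative cells. With the block 3 were higher and 1 lower. Summed mast cell markers were at 3.75 to 47.8 CPM in double positive and 16.6 to 36.3 CPM in double negative libraries. The part of these cell types in the other differences was not tested.

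**Figure D4:**
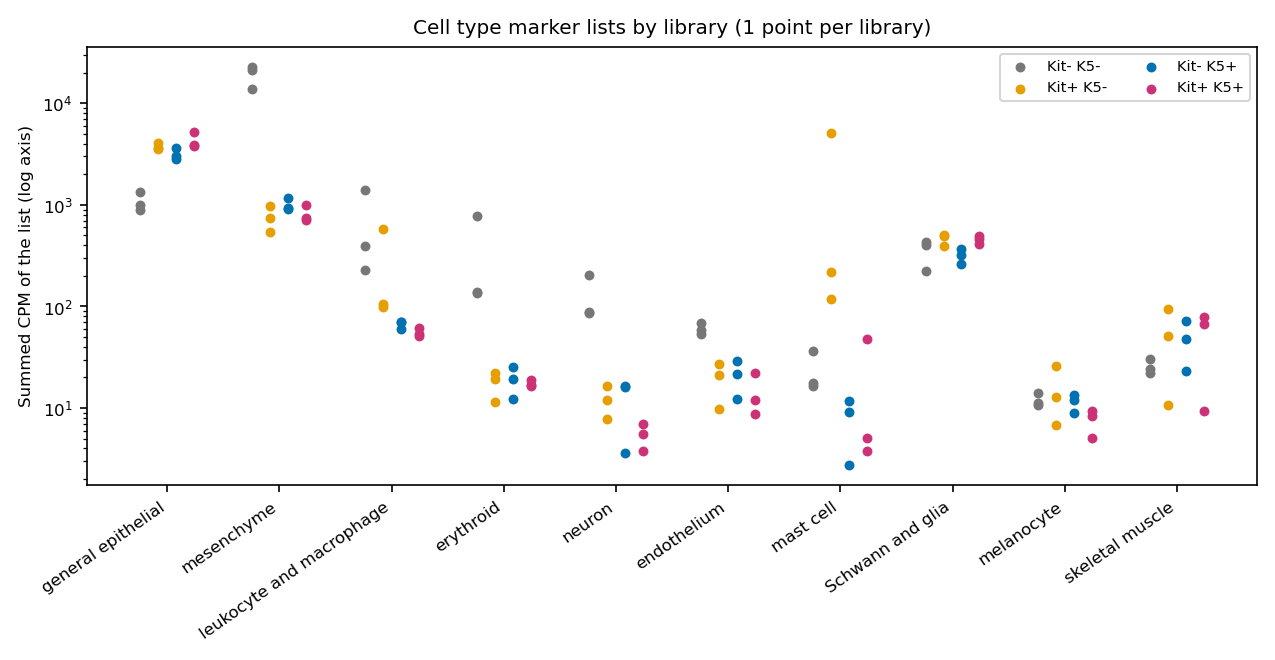
Points are single libraries, with the summed CPM of each marker list on a log axis and the 4 populations in 4 colours. Kit- K5- libraries lie lowest for general epithelial genes (898 to 1339 CPM) and highest for mesenchyme, leukocyte, erythroid, neuron and endothelium, except that Kit+ K5- replicate 1 reaches 582 CPM of leukocyte and 5137 CPM of mast cell markers.

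Differences larger than that of the epithelial genes themselves were few on the higher side. With scaling to the 23 epithelial genes, 44 genes passed as higher, of which 24 were not predicted genes and averaged at least 10 CPM in the double positive group; these were named after their values were seen. They included the 12 genes with the largest difference and, besides these, Foxa1, Grb7, Egln3, Galnt3, Fut9, Irx2, Irx5, Sema3b, Tst, Kirrel3 and Tmem30b. The scaling moved the median of all genes from -0.04 to -2.05. Genes picked for the largest differences under TMM were thus the likeliest to stay above 0, and their presence here is not separate evidence. With this scaling, Kit stood at 2.42, Pou2f3 at 4.76, Myb at 1.80, Foxa1 at 1.52 and Tmem30b at 1.17 on the log2 scale. Grb7, an adaptor of receptor tyrosine kinases, stood at 138, 81.3 and 49.2 CPM in double positive and 10.7, 12.3 and 11.5 CPM in double negative cells. Egln3, an oxygen-sensing hydroxylase, stood at 111, 61.4 and 43.5 CPM in double positive and 11.6, 7.97 and 6.64 CPM in double negative cells, and Galnt3, which starts O-linked glycans, at 34.8, 30.4 and 36.2 CPM in double positive and 5.51, 3.14 and 5.62 CPM in double negative cells. The Iroquois factors Irx2 and Irx5 stood at 76.9, 71.4 and 97.03 CPM in double positive and 7.74, 13.5 and 10.6 CPM in double negative cells, and at 39.6, 27.4 and 43.8 CPM in double positive and 2.62, 3.98 and 5.21 CPM in double negative cells, respectively. For all 5, every Kit+ K5+ library lay above every Kit- K5- library. The groups did not overlap for 4471 of all 4540 called genes either, nor for 46% of all genes tested. By contrast, 1040 genes that were higher under TMM passed as lower with this scaling.

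Part of the double difference was in genes that neither single step called. Kit alone (Kit+ K5- against Kit- K5-) gave 1729 higher (10.2%) and 1895 lower genes (11.1%), and K5 alone (Kit- K5+ against Kit- K5-) 1256 (7.38%) and 1550 (9.1%). All 3 comparisons share the Kit- K5- libraries. Of the 2073 higher genes, 662 were called in both steps, 696 in the Kit step alone, 205 in the K5 step alone and 510 in neither (2.99% of genes tested). Of the 2467 lower genes these were 1047, 559, 244 and 617 (3.62%). Without Kit+ K5- replicate 1 the counts called in neither were 600 higher and 720 lower, and without Kit- K5- replicate 1 they were 384 and 431. With the library runs as a block, 265 of the 510 higher and 383 of the 617 lower genes were still called in the double comparison and in neither step.

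Missing the threshold in a step covers a range of values. The unadjusted p was 0.05 or more in both steps for 141 of the 510 higher and 259 of the 617 lower genes, and in 1 step or both the adjusted p lay between 0.05 and 0.1 for 259 and 243. A gene of this kind is therefore one that missed a threshold, not one shown to be unmoved by a single step. The median differences of the higher set were 0.90 in the double comparison, 0.56 for Kit alone and 0.48 for K5 alone. Those of the lower set were -3.22 (-3.19 with genes at 0 counts at their bound), -1.23 and -1.08. Both sets were chosen by these same comparisons. Medians that are larger in the double comparison than in the steps are therefore built in by the choice. The lower set was also low in level, with a median of 5.91 CPM in Kit- K5- cells against 27.1 CPM for all lower genes. Kit+ K5- replicate 1 was the highest of its 3 libraries in 417 of the 617 (67.6%), against 56% of all lower genes and 36.3% of all genes tested.

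Of the 8 higher genes named by rule, Polr2a, the large subunit of RNA polymerase II, stood at 728, 624 and 645 CPM in double positive and 317, 380.1 and 378 CPM in double negative cells, with 408, 499 and 481 CPM in Kit+ K5- and 491, 485 and 457 CPM in Kit- K5+ cells. The double difference was 0.89 ± 0.17 (adjusted p = 0.00169), against 0.37 ± 0.17 for Kit alone (adjusted p = 0.132) and 0.41 ± 0.17 for K5 alone (adjusted p = 0.105). The single positive libraries lay between the other populations. Cdk2, a kinase of entry into S phase, stood at 112, 70.7 and 64.9 CPM in double positive and 34.4, 34.8 and 39.00 CPM in double negative cells (1.19 ± 0.24, adjusted p = 0.00266), against 0.69 and 0.30 in the single steps. Suz12, of Polycomb repressive complex 2, stood at 214, 194 and 239 CPM in double positive and 84.9, 108 and 98.4 CPM in double negative cells (1.15 ± 0.24), against 0.67 and 0.42. Troap, a spindle protein, rose by 1.30 ± 0.27, the mitochondrial carrier Mtch2 by 1.00 ± 0.19, the transporter Abca2 by 1.31 ± 0.26 and the scaffold Tanc2 by 1.21 ± 0.24. The cytokine receptor subunit Il13ra1 rose by 2.21 ± 0.45, with replicate 1 highest in both groups (141, 55.5 and 51.9 CPM in double positive and 29.1, 10.4 and 13.99 CPM in double negative cells). With the epithelial scaling, these 8 genes stood at -1.12 (Polr2a) to 0.04 (Il13ra1), 7 of them below 0.

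Of the 8 lower genes named by rule, Irf9, which carries interferon signals to DNA, stood at 12.2, 8.58 and 10.3 CPM in double positive and 40.6, 23.4 and 27.6 CPM in double negative cells, with 23.7, 12.3 and 15.6 CPM in Kit+ K5- and 21.1, 20.2 and 16.1 CPM in Kit- K5+ cells (-1.56 ± 0.32, adjusted p = 0.00314, against -0.83 and -0.67 in the single steps). Arid3a, a DNA-binding factor of B cells and progenitors, stood at 1.57, 2.31 and 1.68 CPM in double positive and 24.3, 10.3 and 13.99 CPM in double negative cells (-3.12 ± 0.57, adjusted p = 0.00146), against -0.95 and -1.04. Cd302, a lectin of phagocytes, fell by 2.21 ± 0.44, Apbb1ip, an integrin regulator of blood cells, by 4.18 ± 0.85, and Ftx, a non-coding RNA of the X inactivation centre, by 1.97 ± 0.40. The transporter Abca8b fell by 4.77 ± 0.89. Astn1, a protein of migrating neurons, had 3 counts in Kit+ K5+ against 468 in Kit- K5- libraries, a ratio of 119 (40.3 to 577). Dock2, which moves leukocytes, stood at 0.461, 0.579 and 0.388 CPM in double positive and 34.8, 6.97 and 10.1 CPM in double negative cells, with 53.3, 5.27 and 7.28 CPM in Kit+ K5- cells, where replicate 1 was highest. Its difference of -5.14 ± 0.99 passed with edgeR (adjusted p = 0.00215) but not with limma-voom (adjusted p = 0.0503). Among list members, the leukocyte phosphatase Ptprc and the VEGF receptor Flt1 were also called in neither step. Ptprc stood at 2.49, 2.796 and 1.94 CPM in double positive and 117, 20.2 and 20.4 CPM in double negative cells (-4.44 ± 1.01, adjusted p = 0.00577), and at 53.05, 7.58 and 13.98 CPM in Kit+ K5- cells. Flt1 fell by 3.62 ± 0.68, against -0.78 and -1.05 in the single steps.

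**Figure D5:**
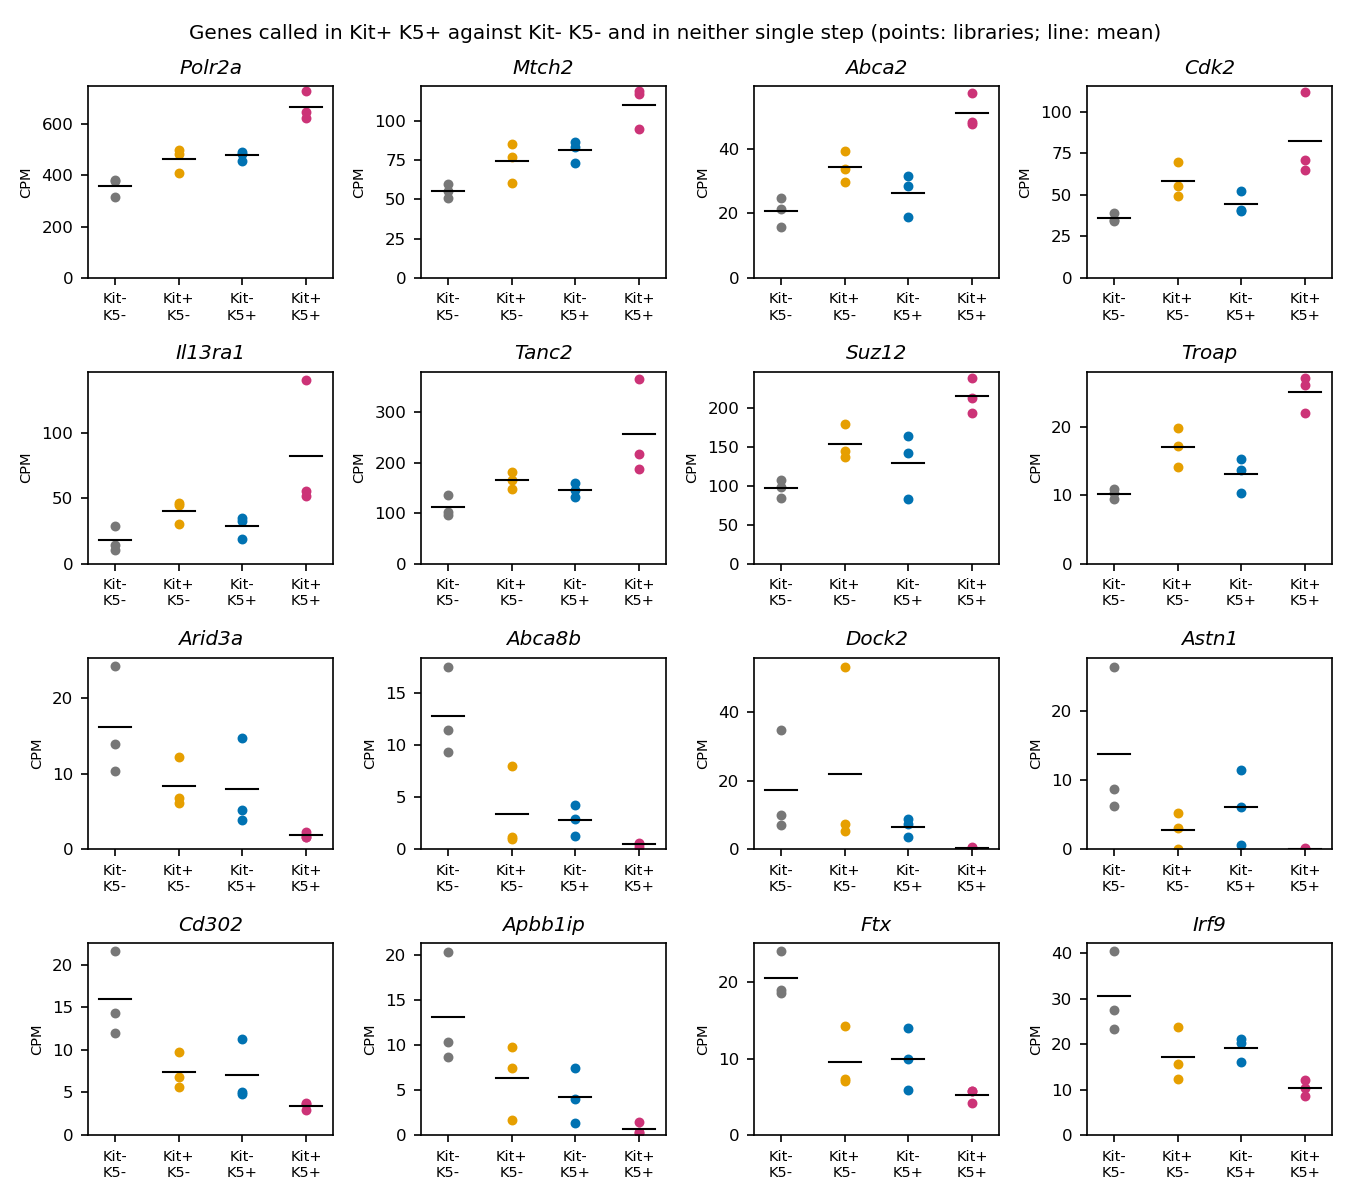
Each panel is a gene called between Kit+ K5+ and Kit- K5- cells and in neither single step, with CPM on a linear axis from 0, a point per library and a line at the mean of each of the 4 populations. By the rule that chose them, Kit+ K5+ libraries lie above all Kit- K5- libraries in the first 8 panels and below them in the last 8. Most single positive libraries lie between. With scaling to epithelial genes, 7 of the first 8 genes turn to below 0 (Polr2a -1.12) and Il13ra1 stands at 0.04.

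Of all genes tested, 2.99% were higher and 3.62% lower and called in neither step. Among 30 lists, the Notch list held 4 such genes of 12 tested and the Wnt list 3 of 18. The endothelium list held 2 of 7, neuron and Hedgehog 2 of 10 each, leukocyte 2 of 13 and DNA replication 2 of 23. Lists with 1 were general epithelial (of 23), mitosis (of 22), FGF and ERK (of 19) and salivary secretory (of 19). Insulin-like growth factor (of 16) and retinoic acid (of 14) also held 1. None was in the end bud (20 tested), basal duct (19), luminal duct (18), desmosome (19), mesenchyme (18), erythroid (7) and BMP (21) lists. Whether any list departs from the share over all genes was not tested.

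Whether the double difference departs from the sum of the single steps was tested with the interaction. It passed for 684 genes (4.02%), of which 478 were above (2.81%) and 206 below the sum (1.21%), and 3204 had an unadjusted p below 0.05. With the library runs as a block the count was 1418. Among the called genes, 143 higher genes passed, all below the sum, and 444 lower genes, of which 441 lay above it. In these the double difference was less than the steps added together; the interaction and the double difference share all libraries, so this is a description. Col3a1 is an example: it fell by 5.22 in the double comparison, 5.63 for Kit alone and 5.42 for K5 alone. Of the genes called in neither step, the interaction passed for 0 of 510 higher and 3 of 617 lower genes, Cacna1e, Ccr6 and the predicted gene Gm10571.

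Starting from the single positive populations, edgeR without the block called few genes in the step to Kit+ K5+ cells, and the counts varied with the method. Against Kit+ K5- cells, edgeR called 0 genes, with 1161 at an unadjusted p below 0.05; limma-voom called 0, DESeq2 8 higher and 111 lower, and edgeR with the block 2 and 52. Against Kit- K5+ cells, edgeR called 57 higher and 55 lower (0.658%), limma-voom 34 and 24, DESeq2 388 and 651, and edgeR with the block 433 and 355. Of the genes called in neither step, 0 were called against Kit+ K5- cells and 1 higher and 9 lower against Kit- K5+ cells. A count of 0 does not show that these populations are alike.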

How the data were processed

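Total RNA of 12 libraries was sequenced as single 50 nt reads. The authors mapped reads to GRCm38 with STAR 2.4.2a and made gene counts with featureCounts, per the labels' protocols; the submitters' processing notes also name featureCounts 1.4.6-p3, Picard 1.129 and FastQC, and GRCm38.p3 as the build. The sources used here name neither annotation release nor strand setting. Deposited tables held 43280 symbols, and 0 of 519360 values differed between the matrix of the whole series and the tables of single libraries. Positions are from GENCODE M21, which matched 39469 symbols, and promoters from RefSeq.

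The analysis of these counts used edgeR 4.0.16 in R 4.3.3. Of all genes, 17030 passed filterByExpr. After TMM scaling, all 12 libraries entered 1 quasi-likelihood fit with 1 coefficient per population (8 residual degrees of freedom, common biological coefficient of variation 0.437). P-values were adjusted by Benjamini-Hochberg over all genes tested, at 0.05. Each SE given is the size of the log2 difference divided by the square root of the quasi-likelihood F statistic. It is not a separately fitted error, and for genes at few counts in a group it depends on the prior count. Alternatives were limma-voom (limma 3.58.1), DESeq2 1.42.0, other scalings and filters, thinning, a block and leaving out each library. In a simulation with 16398 genes tested, 100 genes were changed 2-fold and 100 genes 4-fold, in the Kit+ K5+ group alone. Of these, 12 and 89 were recovered, with 4 false calls. Far fewer genes were changed than were called in the data, and in random directions. These rates therefore do not carry over to the comparison itself.

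Library numbers run in 3 sets, each holding every population. Kit+ K5+ and Kit- K5- libraries of a run deviated together from their group means (r = 0.234, 0.201 and 0.229), against -0.177 to -0.0416 between runs. Deviations from a mean of 3 libraries sum to 0 in each group. The values between runs are therefore tied to those within runs and are not separate evidence. By the values within runs, the runs were taken to pair the libraries in the block, though the labels do not say that a run shares a sort. The main fit does not use this pairing.

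The comparison, the 30 gene lists and the rule for naming genes were chosen with earlier results of these data known. Named by rule were the gate genes and Pdgfra, the 12 largest differences in each direction (mean of at least 10 CPM, no overlap, predicted genes left out), up to 4 called members of each list with the smallest adjusted p, and 8 genes in each direction called in neither step. Further list members were chosen after their values were seen. List counts without Kit- K5- replicate 1 or Kit+ K5- replicate 1 were also added after seeing the data. Results of some list members are not reported here, while counts and medians cover every member tested.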

Additional observations from a re-analysis of the deposited data

Results flagged for a closer look

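A pair of genes called in neither single step departed from the sum of the single steps by the test of that departure, the interaction. The calcium channel subunit Cacna1e lay -6.11 (log2) below the sum (adjusted p = 0.0072 by edgeR's quasi-likelihood test). It stood at 0.369, 0.289 and 0.388 CPM in double positive cells and 2.098, 2.15 and 3.17 CPM in double negative cells. Kit+ K5- cells held 10.8, 1.16 and 6.85 CPM and Kit- K5+ cells 4.001, 6.73 and 18.9 CPM, so the Kit+ K5+ libraries were the lowest and most single positive libraries the highest. Its double difference of -2.78 ± 0.83 (adjusted p = 0.0246) did not pass without Kit+ K5+ replicate 1 (0.0695), replicate 2 (0.0805) or replicate 3 (0.0613), without Kit- K5- replicate 3 (0.0607), or with limma-voom (0.154).

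The chemokine receptor Ccr6 lay -8.09 below the sum (adjusted p = 0.0171). It had 0 counts in the Kit+ K5+ libraries and 26 in the Kit- K5- libraries, at least 6.59-fold lower (against 3 counts over the group), so its fitted value depends on the prior count. Double negative cells held 0.918, 0.69 and 0.306 CPM, Kit+ K5- cells 2.01, 0.843 and 1.602 CPM, and Kit- K5+ cells 2.63, 1.099 and 0.957 CPM.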

How the results depend on the processing

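Scaling to epithelial genes changed the most: 44 genes were higher and 13204 lower, 15 and 1146 of them called in neither step, and 6591 passed the interaction. Of 172 named genes past 0.05, 114 kept their call with that scaling, 24 no longer passed and 34 changed sign: Polr2a -1.12, Mtch2 -1.03, Abca2 -0.66, Cdk2 -0.86, Tanc2 -0.83, Suz12 -0.86, Troap -0.74, Grhl2 -0.079, Myc -0.12, Itgb4 -0.087, Prom1 -0.43, Slc12a2 -0.49, Dusp6 -0.76, Ccnd1 -0.24, Dsp -0.049, Dsc2 -0.083, Ccna2 -0.48, Prc1 -0.69, Ccnb1 -0.21, Ube2c -0.13, Rrm1 -0.83, Tyms -0.92, Cdt1 -0.94, Znrf3 -0.42, Ptch1 -1.39, Jag1 -1.21, Sox10 -0.30, mt-Rnr2 -0.24, mt-Co1 -0.47, Epb4.1l1 -0.85, Sox9 -0.52, Met -0.49, Mki67 -0.79 and Id2 -0.74. The interaction count was 1960 with no filter beyond 1 count, 1418 with the replicate block and 1411 with DESeq2, and at a filter of 5 CPM 313 higher and 315 lower genes were called in neither step. With the block, 2764 genes were higher and 3079 lower, and all 172 named calls held. Leaving out each library gave 1182 to 2182 higher and 1575 to 2604 lower genes, 283 to 841 and 328 to 846 of them called in neither step, and an interaction count of 370 to 729. The lowest counts came without Kit- K5- replicate 1 (1182, 1575 and 370) and, for neither step, without Kit+ K5+ replicate 1 (283 and 328); the highest for neither step came without Kit+ K5- replicate 2. Omitting Kit- K5- replicate 2 gave 1360 higher genes and an interaction count of 396, Kit+ K5+ replicate 2 gave 416 and 366 lower in neither step, and Kit+ K5+ replicate 3 gave 320 and 329 in neither step. Of the 172 named calls, 159 held in every one of these omissions. The cause of these shifts was not tested. Depth limits genes near 0: with 3 counts as the floor, folds against 0 are lower bounds.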

Other observations

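Of 20 immediate early and stress genes, 0 were higher and 6 lower by edgeR (median log2 -0.87), 2 and 11 with the block on library runs and 0 and 20 with scaling to epithelial genes. The heat shock gene Hspa1a stood at 8.58, 7.13 and 6.07 CPM in Kit+ K5+ and 25.1, 19.5 and 37.7 CPM in Kit- K5- cells (-1.91 ± 0.43), and Socs3, a brake on cytokine signals, fell by 2.64 ± 0.47. Of 12 myoepithelial and contractile genes, 0 were higher and 1 lower (median -0.65), 0 and 10 with the epithelial scaling. Caldesmon, Cald1, fell by 1.12 ± 0.26, and smooth muscle actin, Acta2, stood at 42.0, 21.3 and 16.5 against 29.9, 23.8 and 17.7 CPM, with the groups overlapping; in Kit- K5+ cells it reached 704, 124.5 and 26.4 CPM.

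Of 12 mitochondrially encoded genes tested, 3 were higher (median 1.41), 9 with the block, 2 without Kit- K5- replicate 1 and 0 with the epithelial scaling. The ribosomal RNA mt-Rnr1 rose by 1.97 ± 0.45 under TMM and stood at 0.03 with the epithelial scaling; the share of mitochondrial transcripts, given above, moved with the same groups. Schwann and glia markers gave 2 higher and 2 lower of 10 (median -1.71), 1 and 1 without Kit- K5- replicate 1, and 0 and 8 with the epithelial scaling. Fabp7, a fatty acid binding protein of glia, stood at 5.72, 7.81 and 9.43 against 23.3, 61.2 and 57.6 CPM, whereas Erbb3, also an end bud gene, was among the higher. Of 3 melanocyte markers tested 0 passed, and of 3 skeletal muscle markers the intermediate filament gene Des was lower by 6.03 ± 1.28.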
